A study of Mus musculus with 6 samples.

Results

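Ovaries of C57Bl/6J mice 4 days after birth were compared with ovaries 2 days after birth, each measured against newborn ovary (day 0, under 24 h old). All 6 arrays of the series take part: 3 carry day 2 RNA and 3 carry day 4 RNA in the Cy5 channel, and each has day 0 RNA in the Cy3 channel. The quantity described is the mean log2 ratio of the 3 day 4 arrays minus that of the 3 day 2 arrays, per spotted cDNA probe, so that a positive difference is a higher level at day 4. It is an indirect comparison, because no array holds day 2 and day 4 RNA together. A dye effect shared by the 6 arrays drops out of it if all ratios are Cy5 over Cy3, as stated. No allele or treatment is given for the mice. Each array has a later RNA of its own, which the submitters count as a biological replicate, while array 3 of both ages shares 1 day 0 RNA and the other 4 arrays each have their own day 0 RNA. The sources used here do not give how many ovaries went into an RNA. The RNA is from whole ovary, so fewer cells of a type and less RNA per cell cannot be told apart.

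In the newborn mouse ovary, nests of germ cells break apart and single oocytes become enclosed by flat pre-granulosa cells, which gives primordial follicles. Some of these follicles start to grow at once: the oocyte enlarges and stores the proteins and RNAs of the future egg, and the granulosa cells around it become cuboidal and divide. The series' design places follicle assembly at about day 2 in this strain and the first follicle growth shortly after, so that the step from day 2 to day 4 covers early growth. Oocytes signal to granulosa cells through secreted growth factors such as Gdf9 and Bmp15. The transcription factors Figla and Nobox are known to act in oocytes at this stage, Figla through E-boxes (CANNTG) and Nobox through TAATTA and TAATTG.

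Which way the day 2 ratios run could not be established. Across 8272 probes, day 2 array 1 was anticorrelated with array 2 (r −0.68), although both are stated to have day 2 RNA in Cy5, and day 2 array 3 had r 0.02 with array 1 and 0.23 with array 2. The day 4 arrays had r 0.75 (arrays 1 and 2), 0.51 (1 and 3) and 0.44 (2 and 3), over 5270 to 7775 probes. With day 4 arrays 1, 2 and 3, day 2 array 1 had r 0.27, 0.18 and 0.023 and day 2 array 2 had 0.109, 0.239 and 0.225. Day 2 array 3 had 0.348, 0.379 and 0.767 with them. The standard deviation (SD) over 3 arrays had a median of 0.32 at day 2 and 0.21 at day 4, and was larger at day 2 for 67.8% of the 5270 probes with values on all 6 arrays. Differences are therefore given in the deposited direction and, for the genes and lists a result turns on, with day 2 array 1 or array 2 reversed in sign. In the reversed values a dye effect shared by the arrays does not fully drop out. Probes had values on 5630 to 8272 of 8272 positions per array, the fewest on day 4 array 3. Of 13 ovarian identity markers 6 had a probe matched by name (Gdf9, Bmp15, Sycp3, Star, Cyp17a1, Hsd3b1), and each was free of the authors' flags on 4 to 6 arrays. The meaning of these flags is not given. By mean intensity the 6 ranked from percentile 23.6 of all probes (Bmp15) to 93.9 (Hsd3b1).

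No probe passed the test for day 4 against day 2: 0 of 8135 probes (0.0%) had an adjusted p under 0.05 in limma with Benjamini-Hochberg adjustment, and the smallest adjusted p was 0.356. Before adjustment, 160 probes with a positive difference (1.97%) and 55 with a negative one (0.676%) had p under 0.05. The values below are therefore descriptions of differences that did not pass. On single probes, 3 arrays against 3 cannot reach an exact permutation p under 0.1. Of the 5270 probes with 6 values, 218 had all 3 day 4 arrays above all 3 day 2 arrays (4.14%) and 144 had them below (2.73%). Among the 218, the difference exceeded 1 (log2) for 53 and 2 for 7. Among the 144, the difference was beyond −1 for 8 and beyond −2 for none. Day 2 and day 4 means were both above day 0 for 153 of the 218, and 63 were below day 0 at day 2 and above it at day 4. Over all 5270 probes these counts were 2001 and 618. Of the 144, 87 were above day 0 at day 2 and below it at day 4, and 48 were below day 0 at both ages. Over all 5270 probes these counts were 815 and 1836. Choosing probes by the order of the ages itself favours a change from one side of day 0 to the other. These courses depend on the day 2 direction: for the same 218 probes the counts were 149 and 67 with day 2 array 1 reversed and 110 and 106 with array 2 reversed. For the 144 they were 74 and 61, and 59 and 76, in the same order. The 30 smallest p-values all belonged to positive differences, and 14 of these 30 probes had no gene name, against 3332 of all 8135 probes tested.

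**Figure D1:**
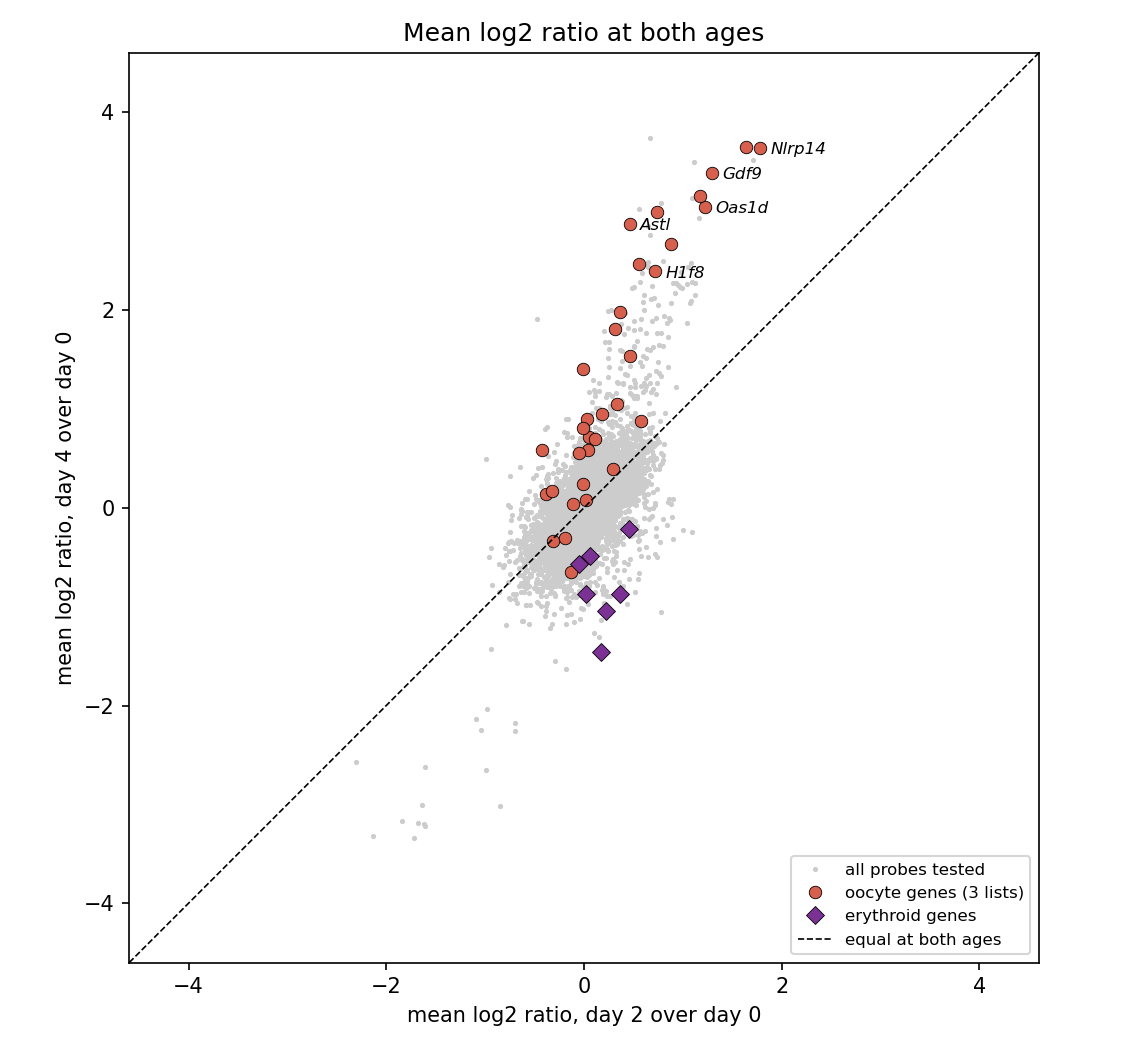
Mean log2 ratio over day 0 at day 2 (horizontal) and at day 4 (vertical) for all 8135 probes tested (grey), the brightest probes of 33 oocyte genes (red circles) and 7 erythroid genes (purple diamonds). The dashed line marks equal values at both ages; 30 of the 33 oocyte genes lie above it and all 7 erythroid genes lie below it.

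Among named genes with values on all 6 arrays, 11 of the 12 positive differences of smallest p are described here. Of these 11, 7 were members of the oocyte lists, which hold 33 of all 3913 named genes tested. The lists were written with earlier results of these arrays known, so that this count is not independent evidence. All 11 had every day 4 array above every day 2 array, which the choice by p-value favours. H1f8, the linker histone of oocytes, had log2 ratios over day 0 of 0.60, 0.88 and 0.67 at day 2 and 2.24, 2.61 and 2.33 at day 4 (arrays 1, 2 and 3 in that order, here and below; a value with ± is a log2 difference, day 4 minus day 2, with its SE). The 2 ages did not overlap, and the lowest day 4 array lay above the highest day 2 array by more than 1 log2 unit. The difference was 1.68 ± 0.17 (log2, standard error (SE), n = 3 per age), or 3.19-fold, with an adjusted p of 0.356 by limma (unadjusted 6.48e-05). Astl, which encodes the egg protease ovastacin, had −0.24, 0.81 and 0.82 at day 2 and 2.78, 2.77 and 3.06 at day 4, a difference of 2.41 ± 0.32 or 5.3-fold (adjusted p = 0.609 by limma). Its day 2 arrays 2 and 3 were above day 0 and array 1 was below, while the 3 day 4 arrays lay close together. Oosp1, an oocyte-secreted protein, was near day 0 at day 2, with −0.19, 0.098 and 0.17 at day 2 and 0.69, 0.96 and 1.04 at day 4. Its difference was smaller, 0.87 ± 0.18 (1.83-fold), and the ages did not overlap.

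Gdf9, the growth factor through which the oocyte acts on granulosa cells, had 3 probes. The probe with the smallest p had 0.64, 1.42 and 1.41 at day 2 and 2.90, 2.79 and 3.10 at day 4, a difference of 1.77 ± 0.26 (3.41-fold, adjusted p = 0.765 by limma). The brightest probe had −0.45, 2.49 and 1.86 at day 2 and 3.31, 3.42 and 3.42 at day 4, a difference of 2.09 ± 0.74, and its spread came from day 2, where the SD was 1.55 against 0.064 at day 4. On the dimmest probe the values were 0.026, 0.52 and 1.16 at day 2 and 1.27, 1.44 and 2.74 at day 4, a difference of 1.25 ± 0.48. On all 3 probes each day 4 array was above each day 2 array. Bmp15, the related oocyte factor, had −0.03, 0.32 and 0.70 at day 2 and 0.56, 1.43 and 1.16 at day 4, and its difference of 0.72 ± 0.30 came with ages that overlapped, since day 4 array 1 lay below day 2 array 3.

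Several stored egg factors had differences of a similar size. Fbxw27, an F-box protein gene, had 1.26, 1.32 and 2.35 at day 2 and 3.17, 4.35 and 3.42 at day 4 on its brightest probe (2.00 ± 0.43, 4.01-fold) and 0.58, 0.63 and 0.72 at day 2 and 2.23, 3.31 and 1.93 at day 4 on the other (1.84 ± 0.37). Both probes had ages that did not overlap. Oas1c, an oligoadenylate synthetase gene, had 0.66, 1.80 and 0.80 at day 2 and 3.05, 3.43 and 2.92 at day 4 on the probe with the smallest p (2.04 ± 0.34, adjusted p = 0.949 by limma). A dimmer probe of Oas1c had −0.099, 1.07 and 0.82 at day 2 and 1.93 and 2.23 at day 4 with no value on day 4 array 3 (1.48 ± 0.40), whereas the brightest had −1.59, 1.41 and 1.11 at day 2 and 0.61 and 3.01 at day 4, with no value on day 4 array 1, with overlapping ages (1.5 ± 1.19). The neighbouring family members Oas1d and Oas1e had differences of 1.83 ± 0.42 (n = 3 at day 4) and 1.99 ± 0.84 (n = 2). Oas1d had 0.31, 1.95 and 1.41 at day 2 and 2.87, 3.25 and 3.02 at day 4, and Oas1e had −0.26, 2.58 and 1.18 at day 2 and 3.33 and 2.99 at day 4, with no value on day 4 array 3. Nlrp14, an oocyte member of the NLR family, was already above day 0 at day 2, with 2.11, 2.06 and 1.18 at day 2 and 3.92, 4.55 and 2.46 at day 4 (1.86 ± 0.58, 3.63-fold). Padi6, needed for the cytoplasmic lattices of the egg, had a difference of 2.25 ± 1.05 on values of −1.27, 3.08 and 0.41 at day 2 and 3.33, 3.01 and 2.63 at day 4. Its day 2 arrays were widely spread (SD 2.19), and day 2 array 2 overlapped the day 4 arrays; its difference was 1.40 with day 2 array 1 reversed in sign and 4.30 with array 2 reversed.

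The promoter windows of 4 of these genes are shown because these genes had differences of the same sign without overlap on at least 1 probe: the 250 bases before the annotated start, 5′ to 3′ on the gene's strand, from RefSeq (GRCm38.p6). Capitals mark CANNTG, which reads the same on both strands.
H1f8 (chr6:115944681-115944930, plus strand): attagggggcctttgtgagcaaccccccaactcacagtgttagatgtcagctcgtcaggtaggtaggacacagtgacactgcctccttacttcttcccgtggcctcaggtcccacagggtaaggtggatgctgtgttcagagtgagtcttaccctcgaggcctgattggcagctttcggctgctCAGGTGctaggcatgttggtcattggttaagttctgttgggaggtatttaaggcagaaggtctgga
Btg4 (chr9:51115751-51116000, plus strand): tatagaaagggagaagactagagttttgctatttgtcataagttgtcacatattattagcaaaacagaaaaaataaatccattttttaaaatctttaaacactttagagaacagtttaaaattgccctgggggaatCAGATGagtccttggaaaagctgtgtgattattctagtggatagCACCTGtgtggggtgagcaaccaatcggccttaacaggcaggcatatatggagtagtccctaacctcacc
Oosp1 (chr19:11691052-11691301, minus strand): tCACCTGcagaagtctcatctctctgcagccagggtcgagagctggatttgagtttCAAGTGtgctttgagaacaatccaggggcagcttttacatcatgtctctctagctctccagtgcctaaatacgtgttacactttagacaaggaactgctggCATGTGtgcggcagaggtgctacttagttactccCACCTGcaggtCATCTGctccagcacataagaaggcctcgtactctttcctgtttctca
Oas1c (chr5:120812515-120812764, minus strand): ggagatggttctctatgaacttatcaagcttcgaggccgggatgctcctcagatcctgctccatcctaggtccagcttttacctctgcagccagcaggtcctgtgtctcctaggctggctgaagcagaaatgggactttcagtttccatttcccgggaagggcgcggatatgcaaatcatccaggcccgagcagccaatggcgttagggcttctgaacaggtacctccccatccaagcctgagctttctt
The window of H1f8 holds 1 CANNTG, 66 bases before the start, that of Btg4 holds 2, that of Oosp1 holds 5 and that of Oas1c holds 0. Over all 32851 windows of this length in the table, 66.2% hold at least 1. Of 18 genes with the smallest p-values or with oocyte-list ages that did not overlap, 13 matched the table through 21 windows (unmatched were Gdf9, Fbxw27, Oas1d, Nlrp14 and Sall4), and 17 of the 21 windows hold CANNTG. Searched on both strands, TAATTA or TAATTG is in 2 of the 21 windows (Pramel48 and 1 of 4 starts of Slx4ip), against 11.3% of all windows, and in none of the 4 printed. No stretch of letters counts as both kinds of motif. These matches describe letters and name no site.

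Btg4, an adaptor of the deadenylase that clears maternal RNA, had 3 probes. Those of lower intensity had −0.054, 0.82 and 0.49 at day 2 and 1.44, 1.94 and 2.54 at day 4 (1.55 ± 0.36) and 0.12, 0.42 and 0.17 at day 2 and 1.03, 1.60 and 1.94 at day 4 (1.28 ± 0.26), each without overlap. The brightest had 1.11, −0.71 and 0.15 at day 2 and 0.76, 1.02 and 1.06 at day 4, where day 2 array 1 exceeded the day 4 arrays (0.76 ± 0.45). Zbed3, a protein of the subcortical maternal complex, had 0.18, 0.062 and 0.86 at day 2 and 2.20 and 1.76 at day 4 with no value on day 4 array 3 (1.62 ± 0.32, n = 2 at day 4), and a second probe had a difference of 0.63 ± 0.32 with overlap. Mos, the kinase that holds the egg in meiosis, had −0.045, 0.11 and 0.094 at day 2 and 0.74 and 0.69 at day 4 with no value on day 4 array 3 (0.66 ± 0.17). E330034G19Rik had 3 probes with differences of 1.91, 1.73 and 1.35, none with overlapping ages. Ddias, named for suppression of apoptosis after DNA damage, had −0.19, 1.33 and 1.49 at day 2 and 2.42, 2.82 and 2.76 at day 4 (1.79 ± 0.47). Nlrp4a and Nlrp4f, further oocyte NLR genes, had differences of 1.07 ± 0.36 and 1.41 ± 0.53 (n = 3 and 2 at day 4) without overlap, while Nlrp4b had 0.092 ± 0.19 on its brightest probe with overlap and 0.44 and 0.29 on 2 others without. Smaller differences with overlapping ages were those of Cpeb1, which controls cytoplasmic polyadenylation (0.52 ± 0.28), Rfpl4, a RING finger protein gene (0.54 ± 0.35), Bcl2l10, of the BCL2 family (0.31 ± 0.54), Slbp, which binds histone RNA (0.16 ± 0.31), and Cnot7, a deadenylase subunit (−0.025 ± 0.35). Spin1, a spindle-associated chromatin reader, had 0.46, −1.01 and −0.72 at day 2 and 0.61 and 0.56 at day 4, with no value on day 4 array 3, on its brightest of 4 probes (1.01 ± 0.47); its other 3 probes overlapped. Gclc, the catalytic subunit of glutathione synthesis, had −0.15, 0.21 and −0.46 at day 2 and −0.77 and −0.52 at day 4 with no value on day 4 array 3 (−0.51 ± 0.26), without overlap, and its second probe had an overlapping 0.11 ± 0.28.

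**Figure D2:**
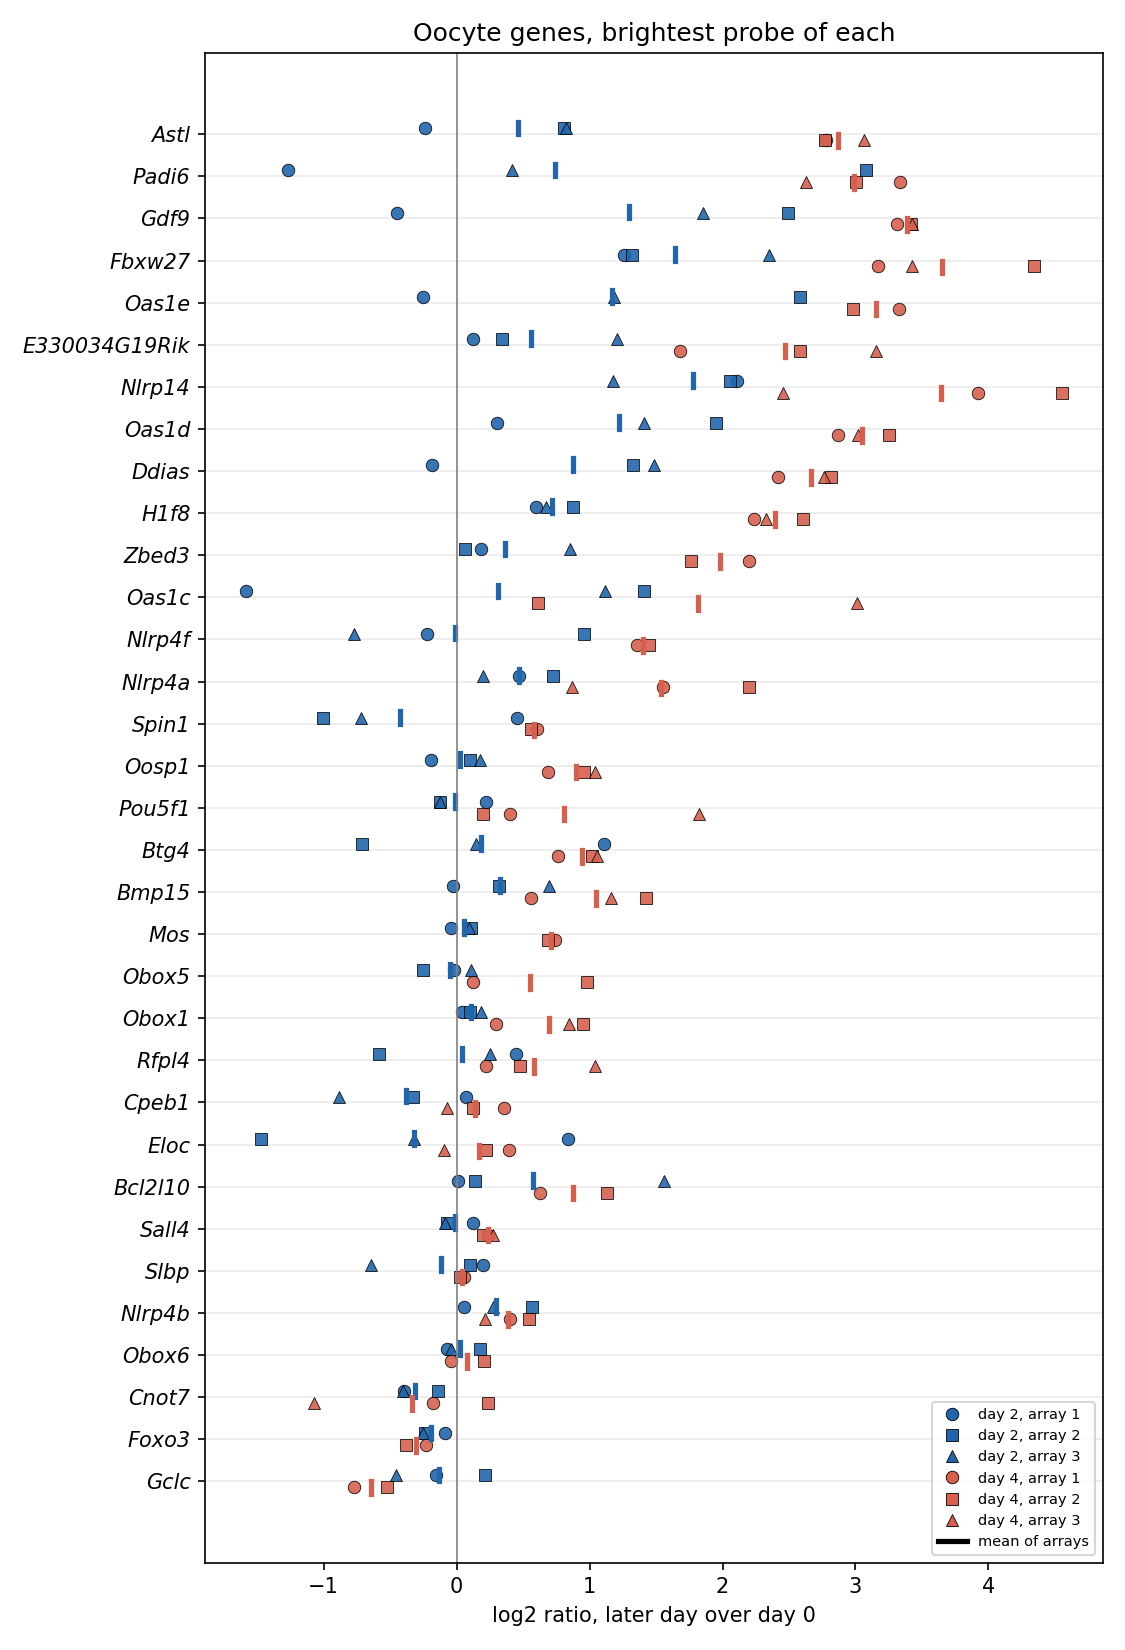
Log2 ratio over day 0 (horizontal) on each day 2 array (blue) and day 4 array (red) for the brightest probe of the 33 measured genes of the 3 oocyte lists, ordered by the difference of the means (vertical bars). The symbol gives the array number. From Astl down to Nlrp14 the day 4 means lie at 2.47 or higher, and at the bottom Cnot7, Foxo3 and Gclc have negative differences.

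Of the oocyte transcription factors 7 of 18 were measured and 0 passed. Obox1, an oocyte homeobox gene, had 0.043, 0.10 and 0.18 at day 2 and 0.30, 0.95 and 0.85 at day 4 (0.59 ± 0.21, unadjusted p = 0.0324 by limma), without overlap. Obox5 had −0.016, −0.25 and 0.11 at day 2 and 0.12 and 0.98 at day 4 with no value on day 4 array 3 (0.60 ± 0.31), and Obox6 had a difference of 0.058 ± 0.19. For Pou5f1, which encodes the germ cell and stem cell factor Oct4, the values were 0.22, −0.13 and −0.13 at day 2 and 0.40, 0.20 and 1.82 at day 4, and day 4 array 3 alone made up most of the difference of 0.82 ± 0.45; without array 3 of both ages it was 0.25. Sall4, a zinc finger factor of germ cells, had a small difference of 0.25 ± 0.14 on ages that did not overlap. Foxo3, which keeps primordial follicles dormant, had −0.09, −0.24 and −0.26 at day 2 and −0.23 and −0.38 at day 4 with no value on day 4 array 3 (−0.11 ± 0.17). Eloc, a subunit of the elongin complex rather than a DNA-binding factor, had 0.49 ± 0.57 with overlap.

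Over the 3 oocyte lists together 33 of 72 genes were measured. Their median difference was 0.82 and 30 were positive, against a median of −0.024 and 45.2% positive among 3913 named genes. Of the 21 with values on all 6 arrays, 12 had every day 4 array above every day 2 array and 0 had them below, where 3.37% and 2.75% of all 2584 such named genes did. Before adjustment, 14 positive and 0 negative members had p under 0.05 by limma, against 68 and 41 of all 3913 named genes. By list the medians were 1.48 for 4 secreted and egg coat genes, 1.24 for 22 stored factors (20 positive) and 0.49 for 7 transcription factors (6 positive). The median log2 ratio of the stored factors was 0.095, 0.45 and 0.34 on day 2 arrays 1, 2 and 3 and 1.36, 1.29 and 2.39 on day 4 arrays 1, 2 and 3. Each median is over the genes with a value on that array. Only 13 of the 22 have values on all 6 arrays, so these medians are not over the same genes. The lists were written with earlier results of these arrays known, so that the counts are not independent evidence of a direction. Of 29 meiotic genes 3 were measured, and Sycp3, of the synaptonemal complex, had 0.17 ± 0.19, Msh4, of meiotic recombination, −0.079 ± 0.18 and Brca2, of recombination repair, −0.24 ± 0.19, all with overlapping ages.

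With a day 2 array reversed in sign, the named oocyte differences kept their sign, except for Eloc. Reversal leaves the day 4 values as they are, and a positive day 2 value, once reversed, makes the difference larger. Genes with high day 4 values could therefore hardly change sign, and their kept signs do not settle the day 2 direction. H1f8 had 2.08 with day 2 array 1 reversed and 2.26 with array 2 reversed. Astl had 2.25 and 2.94, the brightest probe of Gdf9 1.79 and 3.75, Oosp1 0.74 and 0.94, and Nlrp14 3.27 and 3.23, in the same order. The median of the stored factors was 1.35 and 1.61, with 20 of 22 positive each time, and that of the secreted factors 1.26 and 1.94. The transcription factor median was 0.59 and 0.20 with Eloc at −0.49 in the second case. No probe passed in either case (0 of 8135). Over all probes with 6 values, 508 and 463 then had day 4 above day 2 without overlap, and 199 and 185 of the 218 were among them. In the other direction 296 and 367 had day 4 below day 2, with 86 and 76 of the 144 among them.

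Array 3 of both ages shared its day 0 RNA, so that day 4 array 3 minus day 2 array 3 is a comparison of 2 later RNAs with no replicate, and arrays 1 and 2 give a second estimate on separate later RNAs. Across the 5270 probes the 2 estimates had r 0.29, and 52.5% of probes had the same sign in both. Both were positive for 19 of the 21 oocyte genes with 6 values and for 25.4% of all such probes. The 2 estimates are parts of the main difference, and the lists were written with earlier results of these arrays known. The count of 19 is therefore not independent evidence. H1f8 had 1.68 on arrays 1 and 2 and 1.66 on array 3, Astl 2.49 and 2.24, and Padi6 2.26 and 2.21. Fbxw27 had 2.47 and 1.08 on its brightest probe. The 2 oocyte genes with a negative value on array 3 were Nlrp4b (0.16 and −0.052) and Cnot7 (0.30 and −0.67).

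**Figure D3:**
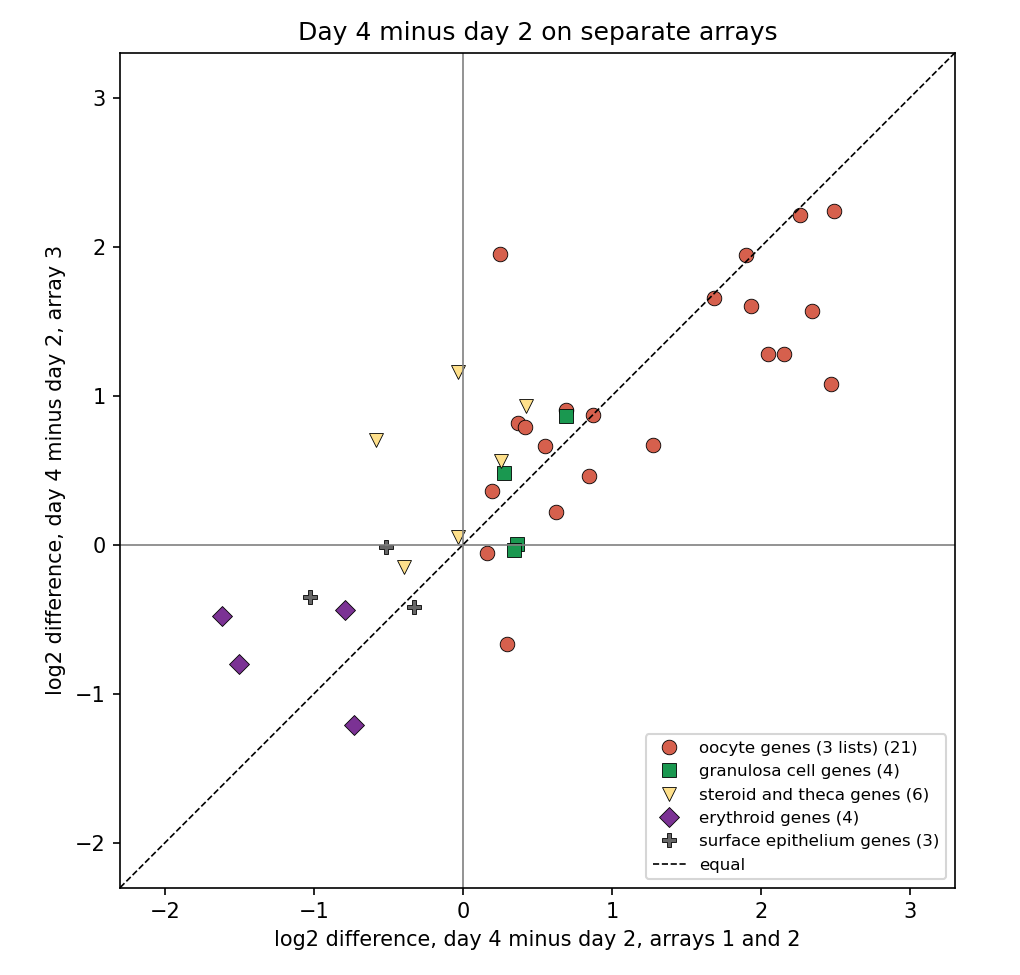
Difference of day 4 minus day 2 (log2) on arrays 1 and 2 (horizontal) and on array 3 (vertical) for genes with values on all 6 arrays; colours and shapes give the gene list and the dashed line marks equal values. Of 21 oocyte genes, 19 are positive on both axes, and all 4 erythroid and all 3 surface epithelium genes are negative on both. Of all 5270 probes with 6 values, 25.4% are positive on both axes and 27.1% negative on both. The lists were chosen with earlier results of these arrays known.

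The other 4 of these 11 genes, outside the oocyte lists, were Depdc7, Slx4ip, Pramel48 and Pfkfb3. Depdc7 had −0.082, 0.16 and 0.073 at day 2 and 0.75, 0.83 and 0.86 at day 4 (0.76 ± 0.14, 1.7-fold). Slx4ip, a partner of the DNA repair scaffold SLX4, was above day 0 at both ages, with 0.89, 0.94 and 0.78 at day 2 and 1.52, 2.07 and 2.12 at day 4 (1.04 ± 0.21, 2.05-fold). Pramel48, of the PRAME-like family, had 0.16, 0.16 and 0.20 at day 2 and 0.73, 0.95 and 0.95 at day 4 on the probe with the smallest p (0.70 ± 0.14), 1.02 ± 0.24 on its brightest and 0.45 ± 0.21 on its dimmest, none with overlap. Pfkfb3, which makes the activator of glycolytic phosphofructokinase, had −0.18, 0.41 and −0.05 at day 2 and 0.93, 0.90 and 0.94 at day 4 (0.87 ± 0.20, 1.82-fold), with the day 4 arrays almost equal. The 2 probes of smallest p without a gene name had differences of 1.73 ± 0.19 and 2.20 ± 0.28. The first of them had 0.076, 0.37 and 0.36 at day 2 and 1.87, 2.27 and 1.87 at day 4, and the second 0.33, 0.44 and 1.17 at day 2 and 2.54, 3.05 and 2.95 at day 4.

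Among named genes with values on all 6 arrays, the 12 of smallest p with a negative difference had unadjusted p-values from 0.0081 to 0.0293 and adjusted p-values of 1 by limma. All 12 had every day 4 array below every day 2 array, which the choice by p-value favours. Tmx2, a membrane protein of the thioredoxin family, had −0.17, 0.35 and −0.21 at day 2 and −0.92, −0.71 and −0.75 at day 4 (−0.79 ± 0.20, 1.73-fold lower). Gprc5b, an orphan receptor, had 0.068, −0.031 and −0.02 at day 2 and −0.51, −0.48 and −0.43 at day 4 (−0.48 ± 0.13), and its arrays were close together at both ages. Diablo, the mitochondrial protein that relieves caspase inhibition, had 0.13, 0.057 and −0.13 at day 2 and −0.48, −0.51 and −0.46 at day 4 (−0.50 ± 0.15). Ubac1, of the ubiquitin system, had −1.02 ± 0.31, Jam2, a junctional adhesion molecule, −1.07 ± 0.33, Hcfc2, a host cell factor homologue, −1.02 ± 0.31, and Tktl1, a transketolase-like gene, −1.06 ± 0.34. The other 5 were Tspan32, a tetraspanin of blood cells (−0.65 ± 0.20), Gnpda1, of amino sugar metabolism (−0.65 ± 0.21), Creg1 (−0.63 ± 0.20), Dusp9, a MAP kinase phosphatase (−0.60 ± 0.20), and a clone annotated as phospholipase C, delta (−0.54 ± 0.19). With day 2 array 1 reversed in sign the difference of Jam2 was −0.34, and with array 2 reversed Ubac1 had −0.50; all 12 stayed negative.

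**Figure D4:**
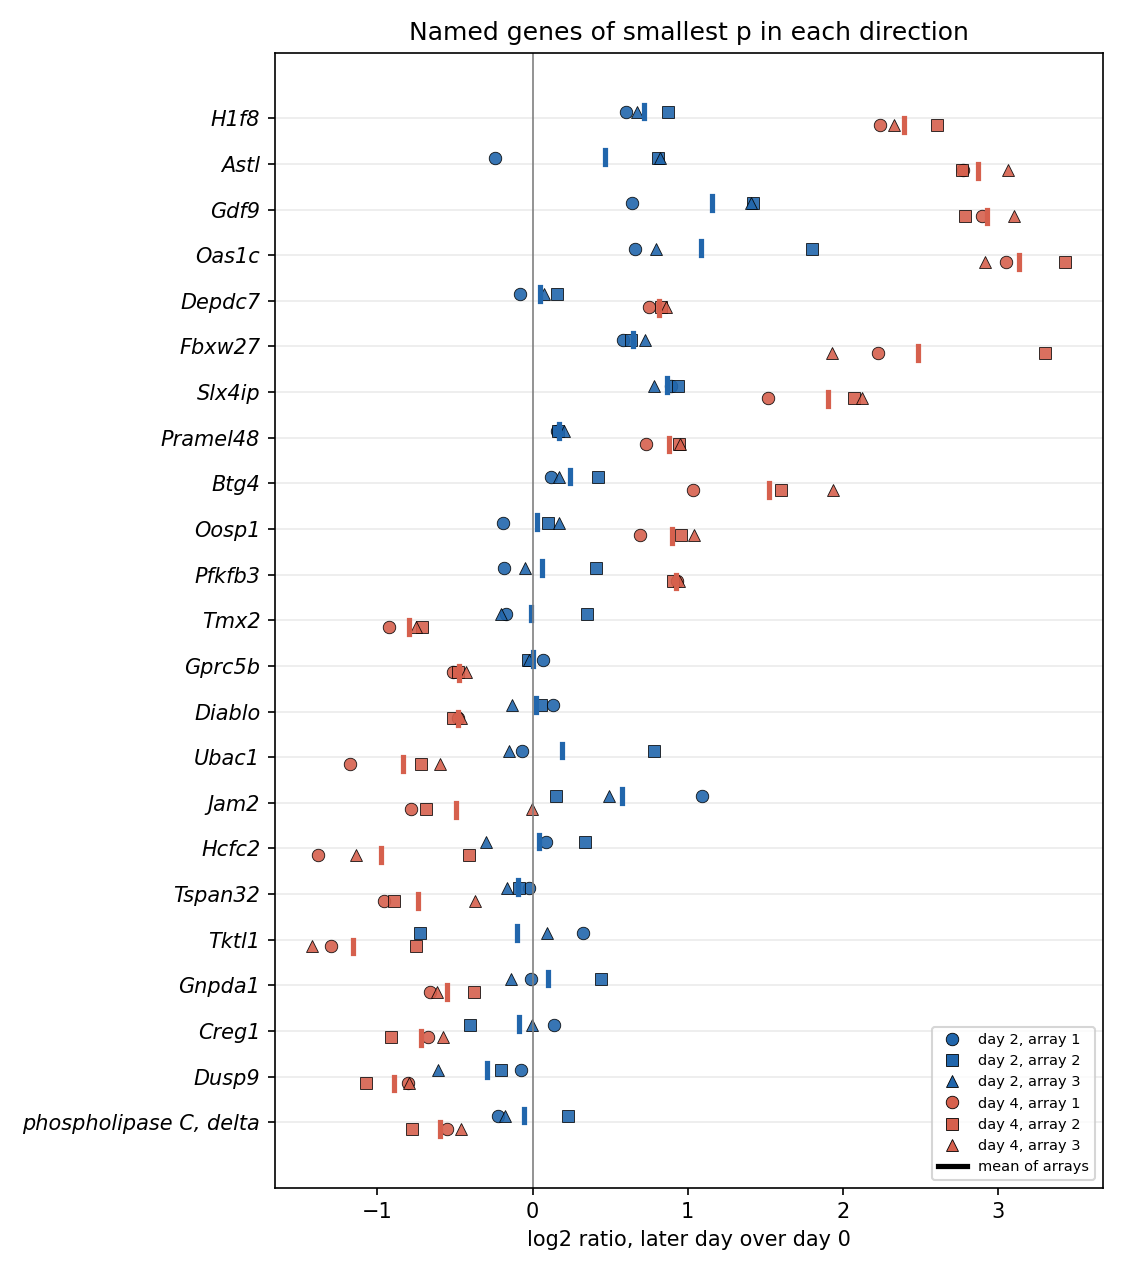
Log2 ratio over day 0 (horizontal) on each day 2 array (blue) and day 4 array (red) for named genes of small unadjusted p among probes with values on all 6 arrays, 11 with a positive difference above and 12 with a negative one below; vertical bars are means of 3 arrays. Each gene is shown at the probe with the smallest p, and the ages do not overlap for any of the 23, none of which passed the adjusted test.

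Red blood cell genes had negative differences. All 7 measured of 27 erythroid genes had a negative difference, with a median of −0.89, and 0 passed. Blvrb, biliverdin reductase B, had 0.006, 0.74 and −0.23 at day 2 and −1.59 and −1.33 at day 4 with no value on day 4 array 3 (−1.64 ± 0.34, n = 2 at day 4). Fech, the last enzyme of heme synthesis, had −0.36, 1.35 and −0.32 at day 2 and −1.30, −0.72 and −1.12 at day 4 (−1.27 ± 0.50), and Ermap, an erythroid membrane protein, had −0.30, 1.45 and −0.068 at day 2 and −1.26, −0.82 and −0.55 at day 4 (−1.24 ± 0.50). Day 2 array 2 was the highest array for both. Gata1, the erythroid transcription factor, had 0.007, 0.096 and −0.26 at day 2 and −0.43 and −0.71 at day 4 with no value on day 4 array 3 (−0.52 ± 0.21). The 3 others overlapped: Cpox (−0.67 ± 0.31), Tfrc (−0.89 ± 0.60) and the hemoglobin gene Hba-a1 (−0.55 ± 0.93), named after their values were seen, to complete the list. Of the 4 erythroid genes with values on all 6 arrays, 2 had every day 4 array below every day 2 array. Of all 2584 such named genes, 2.75% did. Blvrb and Gata1 had only 2 day 4 arrays, on which ages separate more easily. Over the genes with a value on each array, the list median on day 2 arrays 1, 2 and 3 was −0.046, 0.76 and −0.26. On day 4 arrays 1, 2 and 3 it was −1.06, −0.71 and −1.12. With day 2 array 1 reversed the median difference was −0.71 with 0 of 7 positive, and with array 2 reversed it was −0.37 with 1 of 7 positive, Fech then at −0.37 and Ermap at −0.27. Of 18 leukocyte markers 2 were measured, both with negative differences: Laptm5, a lysosomal protein of blood cells (−0.73 ± 0.23), and Lyz2, lysozyme (−0.77 ± 0.61). The part of blood cells in the other differences was not tested.

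Keratins of the ovarian surface epithelium had negative differences on 4 of 4 measured genes, with a median of −0.35 and overlapping ages on the brightest probes. The median was −0.65 with day 2 array 1 reversed and −0.52 with array 2 reversed. Krt8 had −1.24, 0.65 and 0.14 at day 2 and −1.0, −1.66 and −0.22 at day 4 (−0.80 ± 0.59), Krt18 −0.36 ± 0.28, Krt7 −0.35 ± 0.38 and Krt19 −0.33 ± 0.43. A dimmer probe of Krt18 had −0.57, −0.16 and 0.17 at day 2 and −1.39 and −1.87 at day 4 with no value on day 4 array 3 (−1.45 ± 0.30), and 1 of Krt8 had −0.13, −0.12 and 0.15 at day 2 and −0.64 and −1.38 at day 4 with no value on day 4 array 3 (−0.97 ± 0.28), both without overlap. On the brightest probes of both genes, day 4 array 3 was the highest day 4 array. The dimmest probe of Krt8 had −0.79 ± 0.55 with overlap. Among endothelial genes 5 of 6 were negative with a median of −0.064; Podxl, a sialomucin, had −0.52 ± 0.23. Of the oviduct epithelium markers 3 of 4 were positive with a median of 0.064, which was −0.088 (1 of 4 positive) with day 2 array 1 reversed and 0.26 (2 of 4) with array 2 reversed. Of the fat genes 2 of 4 were positive with a median of 0.033, or −0.18 with array 2 reversed. The part of these cell types in the oocyte differences was not tested.

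Granulosa cell genes had positive differences of modest size. All 7 measured of 36 genes were positive, with a median of 0.35, and 0 passed. Dhh, a hedgehog ligand that granulosa cells send to theca precursors, had 0.12, 0.16 and −0.069 at day 2 and 0.31, 0.53 and 0.41 at day 4 (0.34 ± 0.15), without overlap. Ptges, a prostaglandin E synthase, had −0.027, 0.67 and 0.16 at day 2 and 1.02 and 0.72 at day 4 with no value on day 4 array 3 (0.60 ± 0.28, n = 2 at day 4), and Cdkn1b, the cell cycle inhibitor p27, had 0.27, 0.051 and 0.51 at day 2 and 0.88 and 0.62 at day 4 with no value on day 4 array 3 (0.47 ± 0.22, n = 2). The other 4 overlapped between ages: Nr5a2, a nuclear receptor (0.24 ± 0.19), Ctnnb1, beta-catenin (0.35 ± 0.28), Greb1, an estrogen-responsive gene (0.22 ± 0.23), and Serpine2, a protease inhibitor (0.75 ± 0.85). Serpine2 ran from −1.01 to 2.41 over the day 2 arrays. Of the 4 granulosa genes with values on all 6 arrays, 1 had every day 4 array above every day 2 array. Of all 2584 such named genes, 3.37% did. Ptges and Cdkn1b had only 2 day 4 arrays, on which ages separate more easily. With day 2 array 1 or array 2 reversed in sign the list median was 0.35 and 0.45, each with 6 of 7 positive. Whether the granulosa and oocyte lists differ was not tested.

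Steroid synthesis and theca genes were split. Of 8 measured 4 were positive, the median was 0.012, and every gene had overlapping ages. Star, which moves cholesterol into mitochondria, had 0.22, −0.034 and 0.29 at day 2 and −0.17, 0.29 and 1.45 at day 4 (0.37 ± 0.42), and only day 4 array 3 was high. Hsd3b1, a steroid dehydrogenase, had −1.08, 1.91 and −1.02 at day 2 and 0.80, 0.88 and −0.083 at day 4 on its brightest probe (0.59 ± 0.85) and 0.66 ± 0.59 on the other. Cyp17a1, the enzyme of androgen synthesis, had 0.028 ± 0.68 and an SD of 1.12 at day 2. Cyb5a, its cytochrome b5 partner, had 0.36 ± 0.57, Tspo, a mitochondrial membrane protein, −0.31 ± 0.42, Scarb1, the HDL receptor, −0.20 ± 0.39, and Nr5a1, the steroidogenic transcription factor, −0.15 ± 0.60. On the brightest probes each of these 7 differences was smaller than its SE.

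The signalling lists had no settled direction. The PI3K, mTOR and FOXO list had a median of −0.024 over 11 genes (5 positive), the TGF-beta, BMP and activin list 0.041 over 9 (5 positive) and the Notch list −0.15 over 6 (2 positive). With day 2 array 2 reversed in sign these medians were 0.32, 0.11 and 0.32. Heyl, a Notch target, had −0.30, 0.43 and −0.073 at day 2 and 1.14 and 0.49 at day 4 with no value on day 4 array 3 (0.80 ± 0.32), and Acvr2b, an activin receptor, had −0.032, 0.055 and −0.013 at day 2 and −0.074 and −0.38 at day 4 with no value on day 4 array 3 (−0.23 ± 0.18). Imprinted fetal growth genes had negative differences in 5 of 6 measured, with a median of −0.56. Igf2, the fetal growth factor, had −1.84, −0.80 and −0.62 at day 2 and −2.35 and −1.94 at day 4 with no value on day 4 array 1 (−1.06 ± 0.43), below day 0 at both ages and without overlap. Without array 3 of both ages Igf2, H19 and Ube3a had no estimate, since they lack a value on day 4 array 1. The median over the members left was then −0.024.

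Cell cycle and DNA replication genes had a median of −0.12 over 39 measured genes, of which 15 were positive. Ccnd1, cyclin D1, had 0.085, −0.025 and 0.20 at day 2 and 0.35, 0.41 and 0.53 at day 4 (0.35 ± 0.15), while Ccnd3, cyclin D3, had −0.099, 0.074 and −0.52 at day 2 and −0.72, −1.37 and −0.67 at day 4 (−0.74 ± 0.27), and neither overlapped. The median turned to 0.25 with day 2 array 2 reversed in sign, when 26 of 39 were positive. Apoptosis genes had a median of 0.055 over 11 genes (−0.43 with day 2 array 2 reversed), Diablo being the member without overlap. Of the stroma and smooth muscle genes, Tpm2, a tropomyosin, had −0.15, −0.53 and 0.30 at day 2 and 0.75 and 0.67 at day 4 with no value on day 4 array 3 (0.84 ± 0.29) and S100a6, a calcium-binding protein, 0.18, 1.20 and 0.67 at day 2 and −0.26, 0.15 and −0.14 at day 4 (−0.76 ± 0.29), over a list median of 0.24 (9 genes); S100a6 had 0.033 with day 2 array 2 reversed in sign. Among immediate early genes, Zfp36, which destabilises AU-rich RNAs, had 0.16, 0.30 and 0.88 at day 2 and 1.04, 1.73 and 2.68 at day 4 (1.37 ± 0.45), and Jun 0.34 ± 0.16, over a median of 0.042 (10 genes), or −0.026 with day 2 array 2 reversed. Slc2a3, a glucose transporter of the glycolysis list, had −0.062, 0.082 and −0.047 at day 2 and −0.26, −0.32 and −0.42 at day 4 (−0.33 ± 0.14), opposite in sign to Pfkfb3, and that list had a median of −0.12 (18 genes), or 0.15 with day 2 array 2 reversed.

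The remaining lists had medians from −0.070 to 0.11. Ribosomal protein genes had 0.11 over 30 genes, oxidative phosphorylation −0.037 over 23, proteasome subunits −0.07 over 26, chaperones 0.048 over 22, extracellular matrix 0.099 over 9 and cholesterol synthesis 0.083 over 9. The sign of each of these medians changed with 1 of the day 2 arrays reversed: chaperones had −0.27, extracellular matrix −0.082 and the proteasome 0.045 with array 1 reversed, and cholesterol synthesis −0.041 with array 2 reversed. For oxidative phosphorylation the list median, over the genes with a value on each array, ran from 0.68 on day 2 array 1 to −0.95 on array 2. It ran from −0.51 to 0.10 over the day 4 arrays. Its median difference, with day 2 array 1 or array 2 reversed in sign, was 0.57 and −0.60, and that of the ribosomal proteins 0.31 and −0.46. Of single members without overlap, Rpl4 and Rpl3, both of the large ribosomal subunit, had 0.52 ± 0.17 and 0.43 ± 0.18, Hspa8, the constitutive HSP70, 2.38 ± 1.10, and Psme1, a proteasome activator, −0.31 ± 0.19, each with n = 2 at day 4. Hspa8 had −2.49, 1.07 and 0.00 at day 2 and 2.42 and 1.39 at day 4, with no value on day 4 array 3, and reversing the sign of day 2 array 1 lowered its difference to 0.72.

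**Figure D5:**
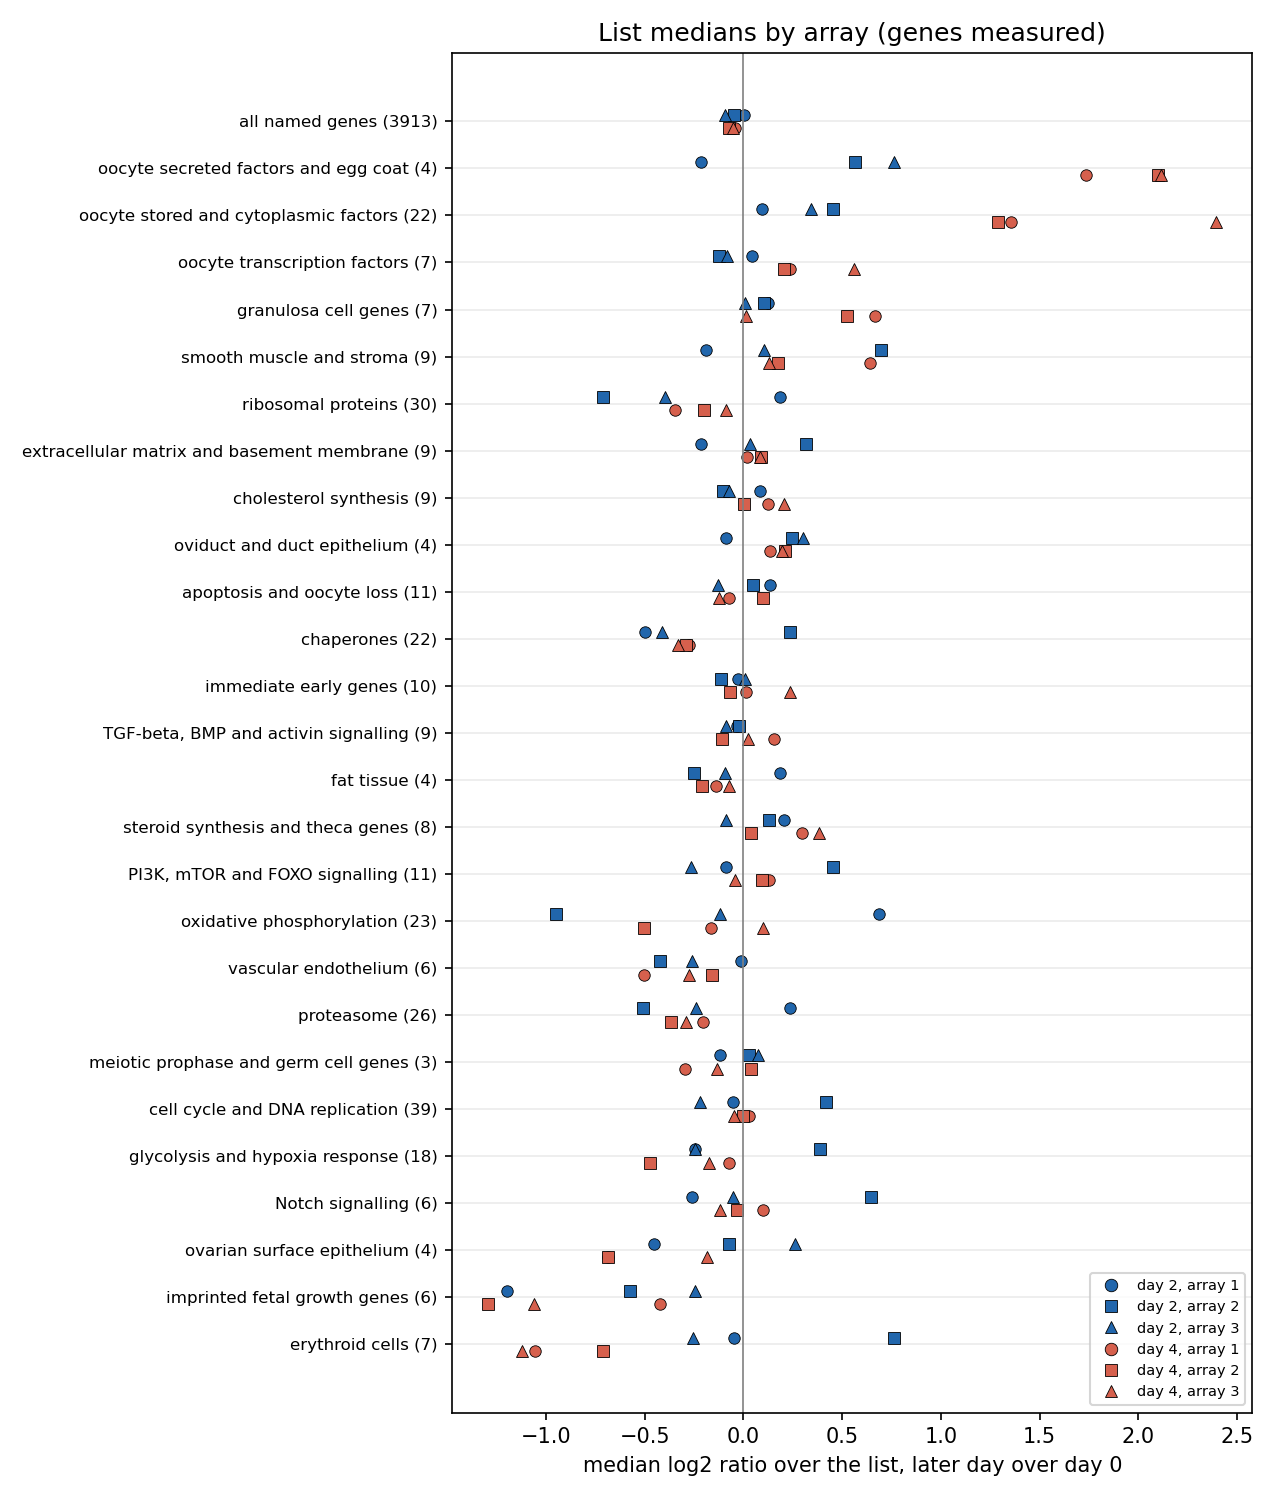
Median log2 ratio over day 0 (horizontal) of each gene list with at least 3 measured genes on each day 2 array (blue) and day 4 array (red), with all 3913 named genes on top and lists ordered by their median difference. Each median is over the members with a value on that array, so the genes can differ between arrays. Day 4 arrays lie to the right of day 2 arrays for the 3 oocyte lists and to the left for the erythroid list; day 2 arrays 1 and 2 lie far apart for oxidative phosphorylation, at 0.68 and −0.95.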

How the data were processed

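The authors compared day 2 or day 4 ovary RNA with day 0 RNA on 2-colour spotted cDNA arrays of 8272 probes. The deposited values are log2 ratios, later day (Cy5) over day 0 (Cy3), per the file headers, with 4 repeats per probe and array; R 1.7.1 is named in the submitters' processing notes. The sources used here do not give the background correction or the normalization. Flags deposited by the authors, 0 or 1, are undefined in the headers. They served only in an alternative and in the count of unflagged arrays for the identity markers.

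The 4 repeats were averaged, since they share an RNA pair, and 8135 probes with at least 2 arrays per age were fitted with limma 3.58.1 (lmFit, eBayes; R 4.3.3), without further normalization, at an adjusted p under 0.05 (Benjamini-Hochberg). The code was tested on simulated data. A gene is represented by its brightest probe unless stated. For 3391 probes no gene name was assigned.

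Values are given for up to 12 named genes of smallest p per direction, for the oocyte, granulosa, steroid, meiotic and surface epithelium lists, and for those of the 4 genes of smallest p in each other list whose ages did not overlap. Of these, 2 genes are not reported here. The comparison, the members and the lists were chosen with earlier results of these data known. The number of arrays limits the precision (median SE 0.26).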

Additional observations from a re-analysis of the deposited data

How the results depend on the processing

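No probe was called in either direction under 20 of the 21 alternatives; with an intensity trend in the variance 1 probe, without a gene name, was called higher (adjusted p = 0.0251 by limma). At an unadjusted p under 0.05, the main 160 higher and 55 lower probes became 573 and 358 with day 2 array 1 reversed in sign, 460 and 261 with array 2 reversed, 355 and 134 without both of these arrays, 231 and 92 after scaling, 106 and 39 without array 3 of both ages, and 63 and 11 without the dimmer probes. Leaving out 1 array gave 384 and 210 (day 2 array 1), 294 and 151 (day 2 array 2), 117 and 44 (day 2 array 3), 83 and 9 (day 4 array 1), 72 and 34 (day 4 array 2) and 168 and 77 (day 4 array 3). Of 93 gene differences, 76 kept their sign under every one of the 21 alternatives that gave them an estimate. Genes without a value on some arrays, or on dimmer probes, had no estimate under some alternatives. The lowest adjusted p of H1f8 by limma over the alternatives was 0.198, and that of Astl 0.0722. Of 27 list medians, 8 kept their sign under all 21 (the 3 oocyte lists, granulosa, erythroid, leukocyte, imprinted and surface epithelium) and 19 did not. Given next are the list medians that moved by more than their spread between arrays and the gene differences that changed sign. The cause was not tested. Alternatives that leave out probes or arrays also drop list members without enough values, so those medians can be over fewer genes than the main ones. With scaled arrays, the list medians that moved were oocyte transcription factors 0.31, and differences of opposite sign were Cnot7 0.057, Nr5a1 0.047, Cyp17a1 −0.13. With the median of the 4 repeats, differences of opposite sign were Obox6 −0.022. With the authors' flagged values left out, the list medians that moved were apoptosis and oocyte loss 0.24. With only probes with 6 values, the list medians that moved were imprinted fetal growth genes −0.072 (1 gene left, Grb10) and cholesterol synthesis 0.31 (5 genes left). With the dimmer probes left out, the list medians that moved were oocyte secreted factors and egg coat 2.25, oocyte transcription factors 0.19, cholesterol synthesis 0.34, immediate early genes −0.65. With day 2 array 1 reversed in sign, the list medians that moved were imprinted fetal growth genes −1.13, apoptosis and oocyte loss 0.31, chaperones −0.27, and differences of opposite sign were Ctnnb1 −0.41, Hsd3b1 −0.12. With day 2 array 2 reversed in sign, the list medians that moved were oocyte secreted factors and egg coat 1.94, oocyte transcription factors 0.20, steroid synthesis and theca genes 0.27, PI3K, mTOR and FOXO signalling 0.32, Notch signalling 0.32, cell cycle and DNA replication 0.25, apoptosis and oocyte loss −0.43, cholesterol synthesis −0.041, erythroid cells −0.37, vascular endothelium −0.35, oviduct and duct epithelium 0.26, fat tissue −0.18, ribosomal proteins −0.46, proteasome −0.41, and differences of opposite sign were Eloc −0.49, Sycp3 −0.13, Greb1 −0.14, Cyb5a −0.24, Scarb1 0.36, Nr5a1 0.76, Cyp17a1 −0.62, S100a6 0.033. With array 3 of both ages left out, the list medians that moved were oocyte transcription factors 0.25, TGF-beta, BMP and activin signalling −0.072, imprinted fetal growth genes −0.024 (without Igf2, H19 and Ube3a), fat tissue −0.15, ribosomal proteins −0.32, and differences of opposite sign were Slbp −0.11, Cnot7 0.30, Star −0.03, Cyp17a1 −0.022. With day 2 arrays 1 and 2 left out, the list medians that moved were steroid synthesis and theca genes 0.22, TGF-beta, BMP and activin signalling 0.20, cell cycle and DNA replication 0.23, cholesterol synthesis 0.19, ovarian surface epithelium −0.80, and differences of opposite sign were Bcl2l10 −0.68, Cnot7 0.069, Nr5a1 0.20. Leaving out each array in turn, the ranges of the values that moved or changed sign were Slbp −0.11 to 0.31, Nlrp4b −0.028 to 0.23, Cnot7 −0.31 to 0.34, Eloc −0.086 to 1.07, Msh4 −0.19 to 0.039, Greb1 −0.001 to 0.37, Star −0.096 to 0.71, Cyb5a −0.14 to 1.00, Scarb1 −0.45 to 0.06, Nr5a1 −0.62 to 0.49, Cyp17a1 −0.51 to 0.61, oocyte secreted factors and egg coat 0.99 to 1.74, oocyte transcription factors 0.22 to 0.59, steroid synthesis and theca genes −0.059 to 0.20, imprinted fetal growth genes −0.64 to −0.025, cell cycle and DNA replication −0.34 to 0.14, apoptosis and oocyte loss −0.23 to 0.32, cholesterol synthesis 0.003 to 0.31, erythroid cells −1.34 to −0.69, fat tissue −0.14 to 0.081, ribosomal proteins −0.29 to 0.43.

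With the array number as a replicate block, 0 probes were called (smallest adjusted p 0.757 by limma), with 155 higher and 69 lower at an unadjusted p under 0.05, and Slbp (−0.11) and Cyp17a1 (−0.022) changed sign. The deviations of same-numbered arrays from their age's mean correlated at 0.36, 0.053 and 0.52 over 5270 probes. Array 2 of neither age correlated best with its own number, so the numbers in general were not taken as pairs. Array 3 of both ages does share a day 0 RNA. The main fit has no term for this and treats all arrays as independent, so its SEs and p-values do not account for it.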

Other observations

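Among probes with values on only 2 day 4 arrays, the largest positive difference of a named gene was that of Sp110, a nuclear body protein gene, at 2.46 ± 0.44 (log2, SE, adjusted p = 0.949 by limma), without overlap between ages. A second probe of Sp110, with values on 3 day 4 arrays, had a difference of 0.94 ± 0.43 with overlapping ages. The gene was chosen after its values were seen. Probes without a gene name made up 42.5% of the 160 with a positive difference at an unadjusted p under 0.05, 21.8% of the 55 with a negative one and 3332 of all 8135 tested.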
